A study of Mus musculus with 9 samples.

Results

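The comparison described here is between activated mouse CD4+ T cells that received TEPP-46 and activated cells that received only its solvent, DMSO. Its members are the 3 libraries named Th0_TEPP and the 3 named Th0_Ctrl, taken by their column names, and they make up 6 of the 9 libraries of the series. All 9 libraries were made from total RNA of CD4+CD62L+ T cells that were enriched with magnetic beads from the spleens of C57BL/6 mice. The 6 activated cultures (called Th0) were stimulated by plate-bound antibodies to CD3 and CD28. They had first spent 15 min with solvent or with the drug at 50 to 100 µM. The sources used here do not give the dose of each library, the length of the stimulation or whether the replicates came from separate mice. The p-values therefore measure no more than the spread among these libraries. The remaining 3 libraries were resting cells; they entered the fit to share its estimate of the spread, and their levels stand beside some results. Libraries were made with a low-input kit and counted per gene. Replicates carry the numbers 1, 4 and 5 in every group.

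Pyruvate kinase carries out the last step of glycolysis, and the Pkm gene makes its M1 and M2 forms by alternative splicing. TEPP-46 is a small molecule that binds the M2 form (PKM2) and favours its active tetramer over the dimer and monomer. A T cell that is stimulated through its antigen receptor leaves a small, slowly metabolising resting state, takes up more glucose and amino acids, makes ribosomes and cytokines, and then divides. The transcription factors HIF-1, MYC and ATF4 drive much of the metabolic part of that program, and PKM2 outside its tetramer has been described as a cofactor of HIF-1. The question put to the data is which transcripts differ between stimulated T cells given TEPP-46 and those given solvent. The counts do not measure PKM2 activity.

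The deposited counts summed to 3782126, 4043226 and 3773438 in the DMSO libraries and to 3900023, 2397304 and 3234647 in the TEPP-46 libraries (in each case replicates 1, 4 and 5, the order kept for all values below). Levels are given in CPM, counts scaled to a common library total with edgeR's TMM factors. Every fold change is a log2 value, TEPP-46 minus DMSO, with its standard error after the ± sign, so that positive values are higher with TEPP-46. A gene is said to rise or fall when its adjusted p was under 0.05 in edgeR's quasi-likelihood test, with the adjustment of Benjamini and Hochberg over all genes tested. The DMSO libraries resembled each other closely (Pearson r of log2 CPM across genes 0.972 to 0.983). The TEPP-46 libraries were less alike: r was 0.818 between replicates 1 and 4, 0.913 between 1 and 5 and 0.896 between 4 and 5. The median SD of log2 CPM per gene was 0.52 with TEPP-46, 0.20 with DMSO and 0.31 in resting cells. TEPP-46 replicate 1 lay nearest to the DMSO libraries and replicate 4, the shallowest, lay farthest. Counts for many of the lists below are therefore also given with single libraries left out. For the other lists, the text gives only the omissions that ended named calls.

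The T cell label was borne out by the markers: all 13 genes of the T cell identity list were tested, and their CPM summed to 4982, 6614 and 5559 CPM with DMSO and 10324, 8235 and 10494 CPM with TEPP-46. Transcripts of other cells were present at low levels in the activated libraries. The summed B cell, platelet and erythroid, and neutrophil markers were higher in every TEPP-46 library than in every DMSO library. In the remaining lists for other cells the groups overlapped. Resting replicates 1, 4 and 5 held 3099, 2607 and 3995 CPM of B cell markers and 108, 191 and 119 CPM of neutrophil markers. They held 30.2, 149 and 114 CPM of platelet and erythroid markers and 1652, 629 and 3566 CPM of plasma cell markers. The B cell markers summed to 238, 257 and 267 CPM with DMSO and 887, 1364 and 761 CPM with TEPP-46, with 7 of 11 tested higher and Cr2, Blk and Fcrla at 0 in all DMSO libraries. For these markers, leaving out DMSO replicate 1, 4 or 5 gave 1, 1 and 1 rises and leaving out TEPP-46 replicate 1, 4 or 5 gave 8, 1 and 3. The platelet and erythroid markers summed to 26.7, 38.9 and 35.8 CPM with DMSO and 185, 586 and 328 CPM with TEPP-46, and the haemoglobin genes Hba-a1, Hba-a2 and Hbb-bs were at 0 in all 6. Itgb3, an integrin gene of platelets and some T cells, made up most of this sum in every DMSO library. The same held in TEPP-46 replicates 1 and 5, but not in replicate 4. The neutrophil markers summed to 0, 1.2 and 1.26 CPM with DMSO and 1.38, 183 and 4.53 CPM with TEPP-46, with S100a8, Camp, Retnlg and Csf3r at 0 in all 6. The macrophage and monocyte markers summed to 33.1, 19.9 and 24.2 CPM with DMSO and 24.8, 75.2 and 46.6 CPM with TEPP-46, with Fcgr1, C1qa, C1qb, C1qc and Vcam1 at 0 in all 6. Dendritic cell markers summed to 704, 426 and 569 CPM with DMSO and 489, 1644 and 421 CPM with TEPP-46, NK cell markers to 112, 139.6 and 82.7 CPM with DMSO and 156, 97.5 and 126 CPM with TEPP-46, plasma cell markers to 25.5, 19.7 and 24.2 CPM with DMSO and 15.1, 36.1 and 15.9 CPM with TEPP-46 and the CD8 T cell markers to 10.1, 10.1 and 8.06 CPM with DMSO and 11.3, 6.72 and 3.88 CPM with TEPP-46. As measures of RNA quality, 30 cytosolic ribosomal protein genes summed to 15330.5, 20174 and 18401 CPM with DMSO and 23932, 5761 and 12090.1 CPM with TEPP-46, 15 mitochondrially encoded genes to 6344, 3399 and 3574 CPM with DMSO and 5685, 5313 and 5651 CPM with TEPP-46 and 11 nuclear lncRNAs to 2972, 5215 and 5085 CPM with DMSO and 3384, 13479 and 13857 CPM with TEPP-46. Among the activated libraries, TEPP-46 replicate 4 held the most B cell, neutrophil and platelet transcripts and the fewest ribosomal protein transcripts. TEPP-46 replicates 4 and 5 held more nuclear lncRNA. The part of these differences in the results below was not tested, and some are repeated beside groups they move with.

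**Figure D1:**
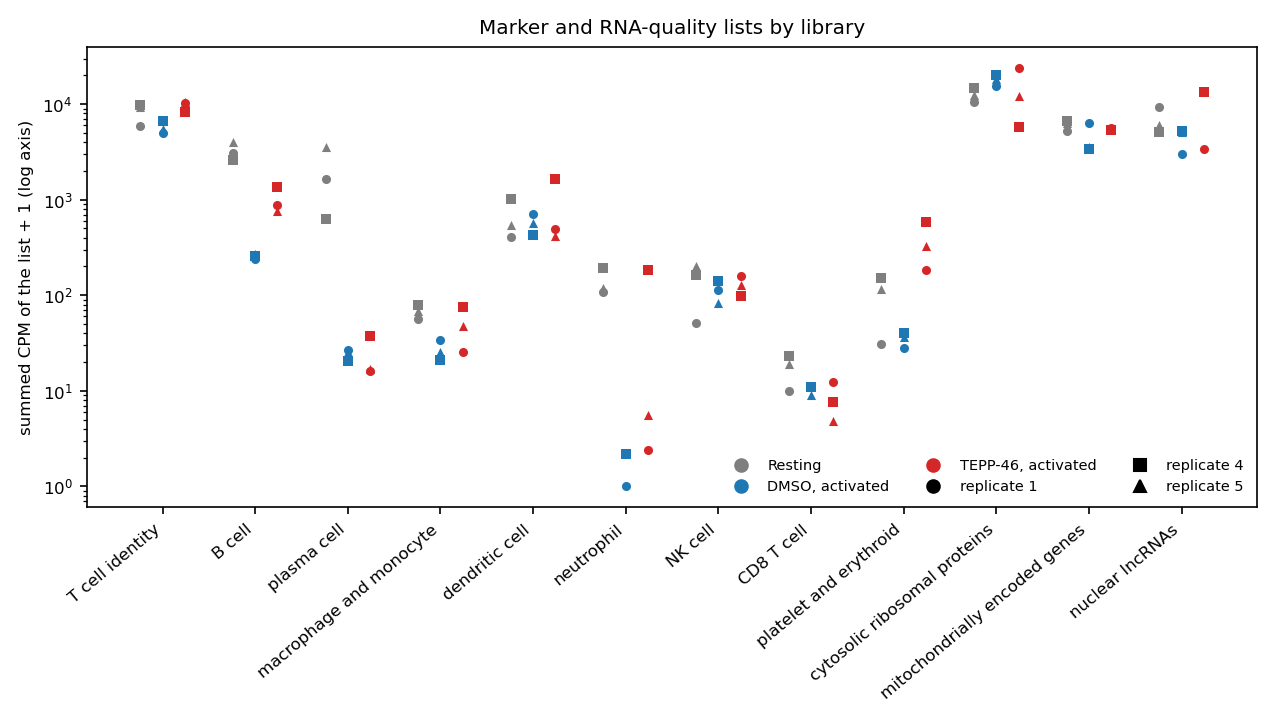
Summed CPM (plus 1, log axis) of the T cell list, 8 lists of markers of other cells and 3 RNA-quality lists, with 1 point per library, coloured by group and shaped by replicate number. TEPP-46 replicate 4 is the highest activated library for B cell, neutrophil, dendritic cell and platelet markers and the lowest for ribosomal protein genes.

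Of 12536 genes tested, 1219 rose with TEPP-46 (9.72%) and 806 fell (6.43%), 16.2% in all. These shares are the background for the counts of list members below, and in short lists a few calls lie near them. The change exceeded 2-fold in 985 of the rises and 660 of the falls, and 4-fold in 353 and 234. The TEPP-46 libraries did not overlap the DMSO libraries for 1178 of the genes that rose and 803 of those that fell, against 39.7% of all genes tested (19.7% higher, 20.0% lower). The median change of all genes tested was 0.04, and 60.2% of the calls were rises. Scaled by total counts alone, the same test called 922 rises and 1182 falls, so that 43.8% of calls were rises, and the median of all genes shifted by -0.13. In none of the settings tried did a called gene take the opposite sign. Because RNA was pooled over all cells of a culture, fewer cells in a given state and less RNA of that gene per cell cannot be told apart.

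The size of the change differed between the TEPP-46 libraries. Against the mean of the DMSO libraries, the genes that rose had a median difference of 1.03, 1.52 and 1.57 in TEPP-46 replicates 1, 4 and 5, and the genes that fell had -1.10, -1.74 and -1.69. Replicate 1 showed the smallest difference of the 3 for 839 of the 1219 rises and 561 of the 806 falls. All 3 libraries were beyond 2-fold from the DMSO mean for 516 of the rises and 386 of the falls. The number of calls depended on the libraries used: without DMSO replicate 1, 4 or 5 there were 367, 360 and 258 rises and 225, 175 and 137 falls, without TEPP-46 replicate 1 there were 2274 and 2133, and without TEPP-46 replicate 5 there were 431 and 216. Without TEPP-46 replicate 4 the numbers were 1044 and 732. A core of 358 genes (243 rises and 115 falls) passed the test in each of the 9 fits that left out 1 library, and genes of that core are named below as kept throughout.

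**Figure D2:**
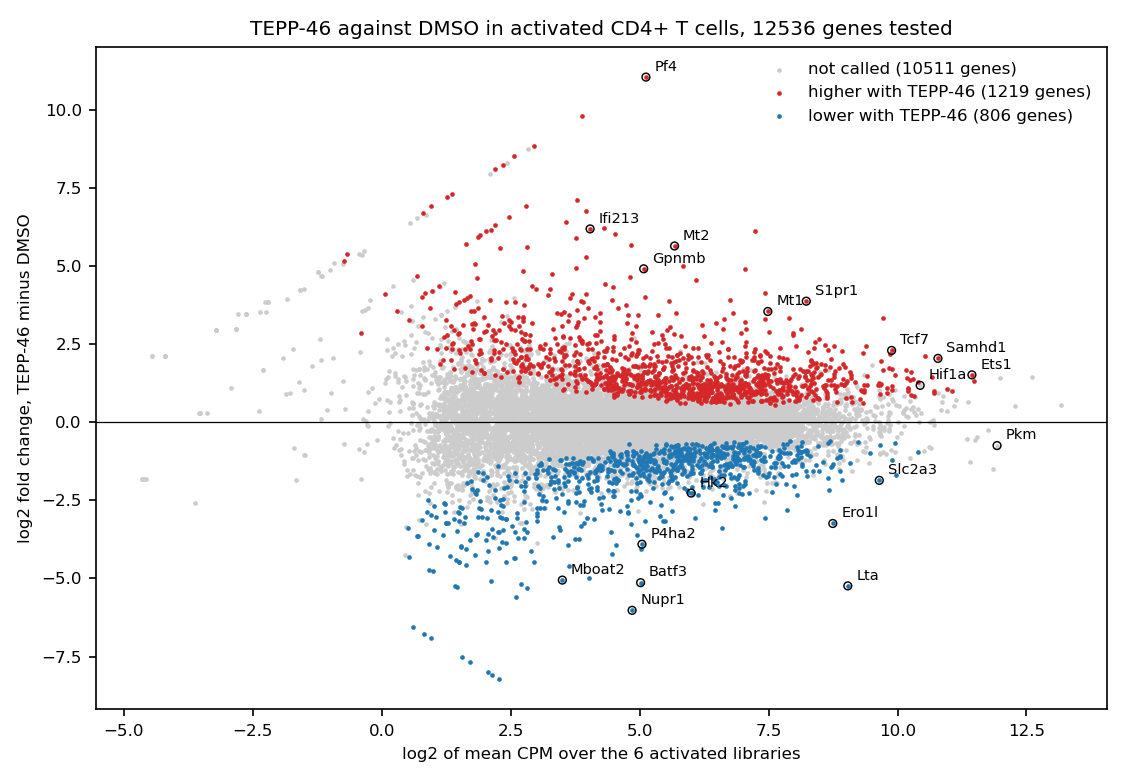
Each point is 1 of 12536 genes tested, with the log2 of its mean CPM over the 6 activated libraries on the horizontal axis and its log2 fold change (TEPP-46 minus DMSO) on the vertical axis. The 1219 rises are red, the 806 falls are blue, and labelled genes are described in the text; Pkm and Hif1a are grey because they did not pass the test.

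The largest rises and falls were named by rule: the 12 largest of each among called genes with a mean of at least 10 CPM whose groups did not overlap, leaving out clone and predicted-gene names, pseudogenes and immunoglobulin and T cell receptor genes, and then the 6 largest of each in CPM. Genes named with the lists further on were taken by adjusted p, and those beyond 4 a list were chosen after their values were seen. Pf4, platelet factor 4 (chr5:90772435-90773383), was at 0 counts in all DMSO libraries and at 9.08, 154 and 45.6 CPM with TEPP-46. With 541 counts against 0, it was at least 242-fold higher, taking 3 counts over the group as the floor. Mpo, the myeloperoxidase of neutrophil granules (chr11:87793581-87804413), was also at 0 with DMSO and at 0.825, 86.1 and 1.94 CPM with TEPP-46, at least 95.6-fold higher and almost wholly in replicate 4. Timp3, a metalloproteinase inhibitor, had 2 counts with DMSO against 210 with TEPP-46 (ratio 141, 95% counting interval 38.5 to 1170), and Mef2c, a transcription factor of B and myeloid cells, had 3 against 227 (ratio 101, interval 34.3 to 496). Zscan10, a zinc finger gene, had 3 counts against 210 (ratio 93.9, interval 31.7 to 459). Resting cells held Mpo at 96.1 ± 18.6 CPM, Mef2c at 10.6 ± 2.61 CPM and Zscan10 at 9.71 ± 3.39 CPM (SD, n = 3). Pf4 and Timp3 were at 0.243 ± 0.267 and 0.067 ± 0.116 CPM there (SD, n = 3). Among the activated libraries, Pf4, Mpo, Timp3 and Mef2c were each highest in TEPP-46 replicate 4, which held the most platelet, neutrophil and B cell transcripts. Zscan10 was highest in TEPP-46 replicate 5. Pf4, Timp3 and Zscan10 were kept throughout, and Mpo and Mef2c each lost the call without at least 1 of resting replicate 1, 4 or 5, DMSO replicate 1, 4 or 5 or TEPP-46 replicate 5 (highest adjusted p = 0.108).

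The other large rises were high in every TEPP-46 library. They were Mt2, a metallothionein, and the interferon-inducible genes Ifit1bl1, Ifi206, Ifi208, Ifi213 and Ifi214, which are described with their groups, and Gpnmb, a glycoprotein of lysosomes and melanosomes. Gpnmb was at 0.981, 2.88 and 2.52 CPM with DMSO and 34.7, 79.8 and 81.8 CPM with TEPP-46 (4.92 ± 0.53, adjusted p = 0.00139). In CPM the largest rises were those of abundant lymphocyte genes. Samhd1 (chr2:157097533-157135265), which degrades deoxynucleotides, was at 554, 776 and 728 CPM with DMSO and 2666, 2822 and 3032 CPM with TEPP-46 (2.05 ± 0.22, adjusted p = 0.0013), and in resting cells at 499 ± 50.3 CPM (SD, n = 3). The groups lay far apart, and the TEPP-46 libraries were also above all resting libraries. Ets1, a transcription factor of resting lymphocytes, was at 1110.5, 1791 and 1412 CPM with DMSO and 2424, 5524 and 4439 CPM with TEPP-46 (1.52 ± 0.33, adjusted p = 0.0155). Shisa5, a membrane protein of the endoplasmic reticulum, rose by 1.34, Arhgap45, a regulator of small GTPases, by 2.13, Gimap3 by 1.46 and Ptprc, which encodes CD45, by 1.0. Ets1, Gimap3 and Ptprc each lost the call without at least 1 of DMSO replicate 1, 4 or 5 or TEPP-46 replicate 5 (highest adjusted p = 0.0821).

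Among the falls, Nupr1, a stress-induced chromatin protein (chr7:126623249-126630861), went from 73.9, 48.9 and 48.4 CPM with DMSO to 1.93, 0 and 0.324 CPM with TEPP-46 (-6.02 ± 0.85, adjusted p = 0.00315). Lta, the cytokine lymphotoxin alpha (chr17:35203165-35205351), went from 1596, 607 and 866 to 38.8, 15.5 and 26.2 CPM (-5.24 ± 0.49, adjusted p = 0.000736). Batf3, a transcription factor of the AP-1 superfamily (chr1:191097847-191108945), went from 78.8, 56.6 and 54.2 to 3.85, 0 and 0.971 CPM (-5.14 ± 0.68, adjusted p = 0.00252). For each of these 3 genes, every TEPP-46 library was far below the lowest DMSO library. The level with TEPP-46 was close to the resting one for Nupr1, 0.691 ± 0.978 CPM (SD, n = 3), and Lta, 25.2 ± 8.15 CPM (SD, n = 3). Resting cells held Batf3 at 0.0721 ± 0.125 CPM (SD, n = 3), and TEPP-46 replicates 1 and 5 were above every resting library. Mboat2, an enzyme that remodels phospholipids, Capn5, a calcium-dependent protease, and Lama5, a laminin chain, fell, with changes of -5.05, -4.59 and -3.94, and were kept throughout. Hspa1a, an inducible HSP70, Selenbp1, Gatm, the first enzyme of creatine synthesis, and Car12, a carbonic anhydrase, had changes of -4.97, -4.21, -3.94 and -3.73. These 4 each lost the call without at least 1 of DMSO replicate 1, 4 or 5 or TEPP-46 replicate 4 or 5 (highest adjusted p = 0.103), and Hspa1a has a near-identical copy, Hspa1b, so its counts are uncertain. Eif5a, a translation factor that carries the modified residue hypusine, was at 1872, 1917 and 1581 CPM with DMSO and 1203, 850.3 and 718 CPM with TEPP-46 (-0.95 ± 0.24, adjusted p = 0.0268), and its call was lost without DMSO replicate 1, 4 or 5 or TEPP-46 replicate 4 or 5 (highest adjusted p = 0.104).

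The metallothionein genes rose and the zinc importer gene Slc39a10 fell. Metallothioneins are small cysteine-rich proteins that bind zinc and copper, and the zinc sensor MTF-1 induces them together with the zinc exporter Slc30a1 through metal response elements. Of 7 tested genes of this list, 3 rose and 1 fell. Mt2 (chr8:94172664-94173568) was at 2.21, 1.44 and 2.27 CPM with DMSO and 107, 69.7 and 125 CPM with TEPP-46 (5.65 ± 0.34, adjusted p = 4.82e-05). Mt1 (chr8:94179082-94180327) was at 25.03, 27.1 and 32.3 CPM with DMSO and 336, 234 and 422 CPM with TEPP-46 (3.55 ± 0.43, adjusted p = 0.00206). In both genes the lowest TEPP-46 library, replicate 4, was several times above the highest DMSO library, and resting cells were near or below the DMSO level, at 2.17 ± 0.19 CPM (SD, n = 3) for Mt2 and 11.8 ± 8.01 CPM (SD, n = 3) for Mt1. Slc30a1 was at 1.23, 0.96 and 0.756 CPM with DMSO and 4.4, 5.88 and 9.06 CPM with TEPP-46 (2.67 ± 0.62, adjusted p = 0.0194). Slc39a10, which brings zinc into the cell (chr1:46807544-46892852), was at 89.1, 77.98 and 69.6 CPM with DMSO and 11, 10.1 and 5.18 CPM with TEPP-46 (-3.17 ± 0.57, adjusted p = 0.00796), and resting cells were at 26.4 ± 17.2 CPM (SD, n = 3). Mtf1 itself, Slc39a1 and Slc39a6 had changes of 0.14, 0.51 and -0.63 and did not pass the test. Mt1, Mt2 and Slc39a10 were kept throughout; Slc30a1 did not pass without DMSO replicate 1, 4 or 5 or TEPP-46 replicate 5 (highest adjusted p = 0.089). An annotated transcript, Gm45774, covers 73.5% of the exon bases of Mt2, so reads of the pair cannot be told apart.

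The promoters of the 3 risen genes are shown because all of them held the core of the metal response element, TGCACNC or TGCGCNC, searched on both strands. The windows are the 250 bases before the RefSeq start of each gene in GRCm38.p6, 5′ to 3′ on the gene's strand, and capitals mark the matches. Mt2 lies at chr8:94172368-94172617 (plus strand, 3 matches), Mt1 at chr8:94178839-94179088 (plus strand, 1 match) and Slc30a1 at chr1:191906531-191906780 (plus strand, 1 match).
Mt2: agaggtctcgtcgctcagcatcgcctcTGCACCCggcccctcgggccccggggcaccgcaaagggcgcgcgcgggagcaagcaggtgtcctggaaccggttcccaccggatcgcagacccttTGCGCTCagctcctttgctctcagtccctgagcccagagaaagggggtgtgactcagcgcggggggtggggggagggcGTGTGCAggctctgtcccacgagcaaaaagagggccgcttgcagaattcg
Mt1: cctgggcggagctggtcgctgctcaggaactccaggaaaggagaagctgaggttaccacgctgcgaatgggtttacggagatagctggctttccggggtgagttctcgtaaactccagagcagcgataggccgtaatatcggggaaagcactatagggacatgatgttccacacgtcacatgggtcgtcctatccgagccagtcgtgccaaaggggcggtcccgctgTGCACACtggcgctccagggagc
Slc30a1: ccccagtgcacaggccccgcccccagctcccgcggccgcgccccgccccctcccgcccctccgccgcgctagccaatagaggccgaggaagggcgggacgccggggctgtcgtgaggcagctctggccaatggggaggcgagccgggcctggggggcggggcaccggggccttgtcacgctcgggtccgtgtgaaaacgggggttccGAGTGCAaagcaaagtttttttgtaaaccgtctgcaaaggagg
A match to these letters was present in 23.6% of all 19526 promoters of the same length and in 30.7% of the 9013 promoters that belong to genes tested. The promoter of Slc39a10 held none. List members that were not called were not counted, so whether the match goes with the rise was not tested.

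**Figure D3:**
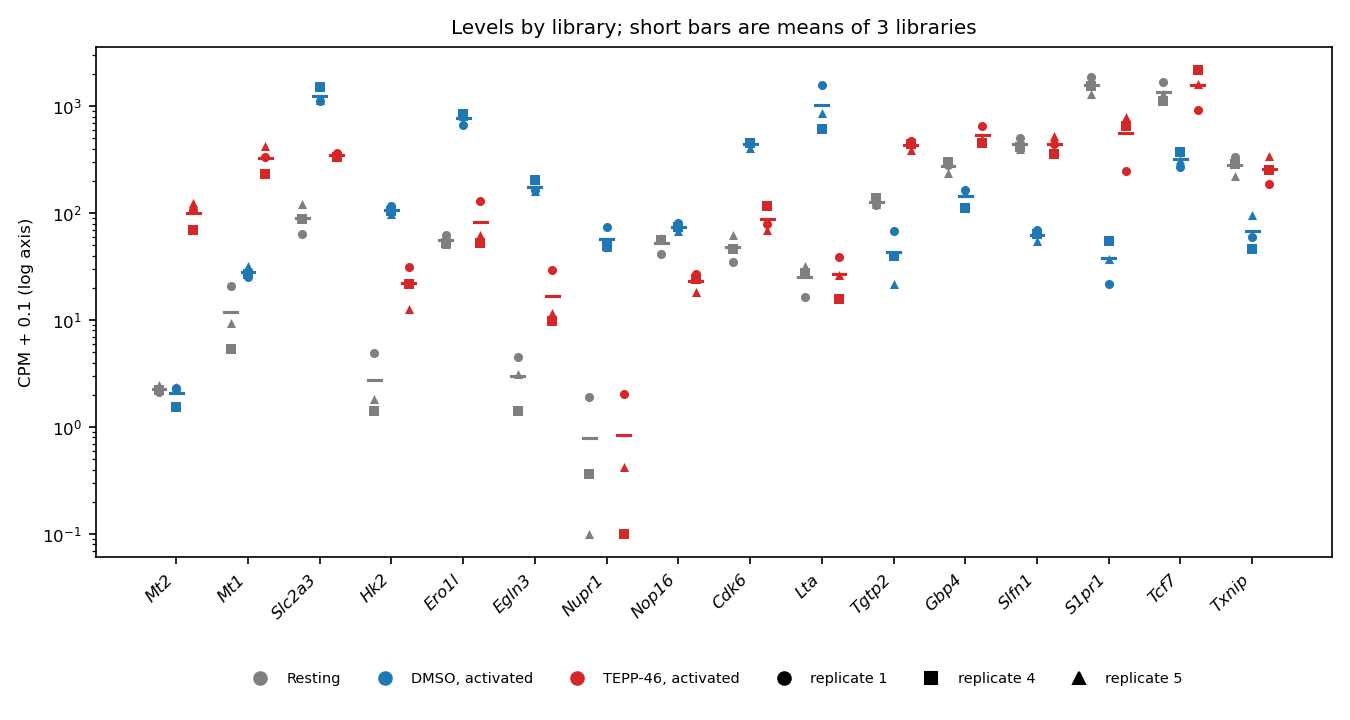
CPM plus 0.1 (log axis) of 16 genes in each of the 9 libraries, coloured by group and shaped by replicate number, with short bars at the group means. Mt2 and Mt1 are higher with TEPP-46 than in both other groups, Lta, Nupr1, Hk2 and Ero1l are lower than with DMSO, and S1pr1, Tcf7 and Txnip are higher than with DMSO; in none of the 16 genes do the TEPP-46 and DMSO libraries overlap.

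Of 25 tested genes for glucose uptake and glycolysis, 7 fell with TEPP-46 and none rose, and the median change was -1.14 against 0.04 over all genes. Slc2a3, the high-affinity glucose transporter GLUT3 (chr6:122727809-122801640), was at 1109.7, 1504 and 1155 CPM with DMSO and 362, 337 and 342 CPM with TEPP-46 (-1.86 ± 0.26, adjusted p = 0.00288). Hk2, the inducible hexokinase (chr6:82725025-82774454), was at 117, 104 and 97.3 CPM with DMSO and 31.4, 21.8 and 12.6 CPM with TEPP-46 (-2.27 ± 0.42, adjusted p = 0.00865), with 2.63 ± 1.92 CPM (SD, n = 3) in resting cells. Pgam1, phosphoglycerate mutase, was at 124, 156 and 159 CPM with DMSO and 71.8, 32.8 and 31.1 CPM with TEPP-46 (-1.69 ± 0.32, adjusted p = 0.00911). The groups did not overlap in any of these 3 genes, which were kept throughout, and Pgam1 was least reduced in replicate 1. The remaining falls were Pgk1, phosphoglycerate kinase (-1.83), Gpi1, which interconverts the hexose phosphates (-1.21), Pfkp, a phosphofructokinase (-1.14), and Slc16a1, the lactate carrier MCT1 (-1.44), and they each lost the call without at least 1 of resting replicate 4 or 5, DMSO replicate 1, 4 or 5 or TEPP-46 replicate 4 or 5 (highest adjusted p = 0.14). For this list, leaving out DMSO replicate 1, 4 or 5 gave 4, 3 and 3 falls in turn, and leaving out TEPP-46 replicate 1, 4 or 5 gave 17, 6 and 3. The list medians in the TEPP-46 libraries were -0.25, -1.93 and -1.24, so replicate 1 was nearest to DMSO. In the same libraries the ribosomal protein genes had library medians of 0.46, -1.62 and -0.64, whose part in this result was not tested.

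Pkm, the gene of the drug's target, was at 4206, 5419 and 5029 CPM with DMSO and 4994, 1549 and 2212 CPM with TEPP-46 (-0.74 ± 0.39, adjusted p = 0.201), so the groups overlapped and it did not pass the test. These counts sum over the M1 and M2 forms, which they cannot separate. Ldha, lactate dehydrogenase A, was at 1626, 2280.2 and 2059 CPM with DMSO and 2110.0, 518 and 835 CPM with TEPP-46 (-0.78 ± 0.44, adjusted p = 0.238). Slc2a1, the transporter GLUT1, was at 83.9, 139 and 126 CPM with DMSO and 97.9, 66.4 and 57.6 CPM with TEPP-46 (-0.65 ± 0.26, adjusted p = 0.108). In all 3 genes TEPP-46 replicate 1 lay inside or above the DMSO range, while replicates 4 and 5 lay below it. Pklr, the liver and red cell pyruvate kinase, had too few counts to test. None of 8 tested genes of the pentose phosphate pathway, which branches from glycolysis to make NADPH and ribose, passed the test (median -0.16). The same held for 39 nuclear-encoded subunits of the respiratory chain (median -0.25), whose medians were 0.22, -0.89 and -0.47 in the 3 TEPP-46 libraries. At an unadjusted p under 0.05 in edgeR's test, 2 pentose phosphate genes and 5 respiratory chain genes were lower and none was higher. Without TEPP-46 replicate 1 there were 3 falls in the pentose phosphate list and 17 in the respiratory chain, limma-voom with library quality weights called 4 and 18, and DESeq2 called 1 and 3. The weights in limma-voom were 0.218, 0.255 and 2.3 for TEPP-46 replicates 1, 4 and 5. Its TEPP-46 side, here and below, therefore rested mostly on replicate 5.

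Of 35 tested genes of the TCA cycle and pyruvate entry, 4 fell, among them Pcx, pyruvate carboxylase, which feeds pyruvate into oxaloacetate (-2.68), Pdp2, which activates pyruvate dehydrogenase (-1.01), and Idh3a, a subunit of isocitrate dehydrogenase (-0.78). Pcx was at 45.1, 47.5 and 48.1 CPM with DMSO and 14.03, 0 and 7.12 CPM with TEPP-46, and its groups did not overlap. These 3 lost their calls without at least 1 of resting replicate 4 or 5, DMSO replicate 1, 4 or 5 or TEPP-46 replicate 4 or 5 (highest adjusted p = 0.129). For the TCA cycle, leaving out DMSO replicate 1, 4 or 5 gave 0, 0 and 0 falls and leaving out TEPP-46 replicate 1, 4 or 5 gave 16, 2 and 0, and limma-voom with library quality weights on all 9 libraries called 18. In the sterol list, 2 of 22 fell, against 6.43% of all genes tested. They were the synthesis enzyme Lss (-2.03) and the cholesterol transport protein Stard4 (-1.43). The library medians of the list were -0.03, -1.81 and -1.58. Those of the ribosomal protein genes were 0.46, -1.62 and -0.64, and the part of RNA quality was not tested. Lss and Stard4 each lost the call without at least 1 of resting replicate 4 or 5, DMSO replicate 1, 4 or 5 or TEPP-46 replicate 4 or 5 (highest adjusted p = 0.145). In the sterol list, leaving out DMSO replicate 1, 4 or 5 gave 0, 0 and 0 falls in turn, and leaving out TEPP-46 replicate 1, 4 or 5 gave 17, 0 and 0. The number was 1 without resting replicate 4 and 0 without resting replicate 5. Of 14 fatty acid synthesis genes, only the elongase Elovl5 was called, as a rise of 0.71; it was lost without resting replicate 4 or 5, DMSO replicate 1, 4 or 5 or TEPP-46 replicate 4 or 5 (highest adjusted p = 0.158) and with total-count scaling, RLE factors or no filter on low counts. Without TEPP-46 replicate 1, and likewise in limma-voom with library quality weights, 7 genes of this list fell.

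Targets of HIF-1 outside glycolysis fell in part. HIF-1 is the transcription factor of the hypoxic response, and T cell stimulation raises it also in air. Of 24 tested, 10 fell and 1 rose, with a median of -0.95. Ero1l, an oxidase of the endoplasmic reticulum (chr14:45283087-45318771), was at 674, 846 and 808 CPM with DMSO and 131, 52.1 and 62.4 CPM with TEPP-46 (-3.24 ± 0.34, adjusted p = 0.0013). Egln3, a prolyl hydroxylase that marks HIF for destruction (chr12:54178981-54203860), was at 166, 203 and 160.3 CPM with DMSO and 29.2, 9.66 and 11.6 CPM with TEPP-46 (-3.37 ± 0.44, adjusted p = 0.00252). In both, the highest TEPP-46 library was replicate 1, still several times below the lowest DMSO library, and both were kept throughout. P4ha2, a collagen prolyl hydroxylase, was at 60.4, 68.6 and 57.5 CPM with DMSO and 9.63, 0 and 1.94 CPM with TEPP-46 (-3.9 ± 0.8, adjusted p = 0.0124), and Stc2, a secreted glycoprotein, was at 57.7, 77.7 and 49.1 CPM with DMSO and 8.53, 0 and 1.62 CPM with TEPP-46 (-4.07 ± 0.8, adjusted p = 0.0107). Replicate 4 held no count of either gene. The other falls were Ak4, a mitochondrial adenylate kinase (-3.06), Ankrd37 (-2.52), Bnip3, a mitophagy receptor (-1.97), Plod2 and P4ha1, which hydroxylate collagen (-1.58 and -1.13), and Egln1, the main oxygen sensor of HIF (-1.0). The rise was that of Hif1an, which inhibits HIF by hydroxylation (1.11). Apart from Ero1l and Egln3, each of these calls was lost without at least 1 of resting replicate 4, DMSO replicate 1, 4 or 5 or TEPP-46 replicate 4 or 5 (highest adjusted p = 0.182). Among the HIF-1 targets, leaving out DMSO replicate 1, 4 or 5 gave 5, 2 and 3 falls in turn, and leaving out TEPP-46 replicate 1, 4 or 5 gave 12, 7 and 3. Hif1a itself was at 646, 1087 and 812 CPM with DMSO and 2592, 1021 and 2172 CPM with TEPP-46 (1.18 ± 0.38, adjusted p = 0.0563), with replicate 4 inside the DMSO range and the other TEPP-46 libraries above it, and it did not pass the test.

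The core of the hypoxia response element, ACGTG or GCGTG on either strand, was found in all 8 of the fallen HIF-1 targets with a promoter in the table and in 5 of 6 fallen glycolytic genes. It is short and common: 42.9% of all promoters and 58.3% of those of tested genes held it, and any CACGTG, the E-box that MYC binds, contains it. List members that did not fall were not counted, so whether the match goes with the fall was not tested. The promoters of P4ha2 (chr11:54100674-54100923, plus strand, 3 matches) and Egln3 (chr12:54203875-54204124, minus strand, 1 match) are shown as examples of steep falls, with the matches in capitals.
P4ha2: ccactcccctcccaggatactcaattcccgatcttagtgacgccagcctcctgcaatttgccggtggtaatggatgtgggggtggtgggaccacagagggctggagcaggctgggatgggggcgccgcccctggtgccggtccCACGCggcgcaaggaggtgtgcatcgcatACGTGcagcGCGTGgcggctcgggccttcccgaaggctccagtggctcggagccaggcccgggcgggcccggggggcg
Egln3: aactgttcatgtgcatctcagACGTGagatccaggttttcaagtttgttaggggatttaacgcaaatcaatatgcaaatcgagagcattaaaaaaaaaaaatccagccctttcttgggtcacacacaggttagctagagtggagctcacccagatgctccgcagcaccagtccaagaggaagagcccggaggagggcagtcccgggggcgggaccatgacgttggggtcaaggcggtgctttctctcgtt

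Genes of the amino acid response, which ATF4 induces when amino acids run short or translation is stressed, were the list with the most falls. Of 31 tested, 17 fell and 1 rose, with a median of -1.55. Besides Nupr1, above, the calls kept throughout were those of Aldh18a1, which starts proline synthesis, and Eif4ebp1, a repressor of translation. Aldh18a1 was at 367, 319 and 309.7 CPM with DMSO and 129.5, 107 and 64.7 CPM with TEPP-46 (-1.72 ± 0.27, adjusted p = 0.00446). Eif4ebp1 was at 246, 201 and 181 CPM with DMSO and 70.1, 26.9 and 31.1 CPM with TEPP-46 (-2.28 ± 0.35, adjusted p = 0.00407). Every TEPP-46 library was below every DMSO library for both, and resting cells were at 123 ± 19.8 CPM (SD, n = 3) and 18.97 ± 2.64 CPM (SD, n = 3). The members with the lowest fold changes after Nupr1 were Pycr1, the last enzyme of proline synthesis (-3.6), the lipoprotein receptor gene Vldlr (-3.3) and Slc7a5, the large neutral amino acid carrier (-2.8). Slc7a5 was at 504, 452 and 264 CPM with DMSO and 136, 33.6 and 4.85 CPM with TEPP-46. The cationic amino acid carriers Slc7a3 and Slc7a1 and the shared heavy chain Slc3a2 fell, with changes of -2.17, -1.25 and -1.18. The serine enzymes Phgdh and Shmt2 fell, with changes of -2.05 and -1.76.

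Among the aminoacyl-tRNA synthetases of that list, Gars, Nars, Sars and Aars fell, with changes of -1.57, -1.55, -0.98 and -0.94, whereas Wars, the tryptophanyl-tRNA synthetase that interferon gamma also induces, rose by 0.92. Wars was at 121, 120.5 and 96.8 CPM with DMSO and 206, 236 and 197 CPM with TEPP-46. Atf4 itself was at 117, 139 and 146 CPM with DMSO and 103, 40.8 and 54.7 CPM with TEPP-46 (-1.01 ± 0.31, adjusted p = 0.0492), and its partner Cebpg fell (-1.57). Asns, asparagine synthetase, had a change of -2.56 ± 0.86, adjusted p = 0.0672, and Psat1, a serine enzyme, -2.19 ± 0.67, adjusted p = 0.0503; neither passed the test. Calls of the list other than Nupr1, Aldh18a1 and Eif4ebp1 were each lost without at least 1 of resting replicate 1, 4 or 5, DMSO replicate 1, 4 or 5 or TEPP-46 replicate 4 or 5 (highest adjusted p = 0.162). Over the list, leaving out DMSO replicate 1, 4 or 5 gave 3, 5 and 3 falls in turn, and leaving out TEPP-46 replicate 1, 4 or 5 gave 23, 11 and 4. The library medians were -0.86, -1.71 and -2.08. The CEBP-ATF response element, TGATGNAA on either strand, was present in 5 of 13 fallen members with a promoter in the table (Aars, Gars, Nupr1, Pycr1 and Vldlr), in 3.24% of all promoters and in 1.76% of those of tested genes. Members that did not fall were not counted, so whether the match goes with the fall was not tested. The Nupr1 promoter (chr7:126625471-126625720, minus strand, 1 match in capitals) is shown because that gene had the lowest fold change among the called genes with at least 10 CPM.
Nupr1: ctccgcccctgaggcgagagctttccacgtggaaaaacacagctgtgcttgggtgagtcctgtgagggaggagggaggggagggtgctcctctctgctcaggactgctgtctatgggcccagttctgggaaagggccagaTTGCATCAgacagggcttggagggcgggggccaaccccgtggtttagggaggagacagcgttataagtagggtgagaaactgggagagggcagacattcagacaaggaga

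Of 24 tested genes that turn serine, folate and amino acids into nucleotides, 9 fell and none rose (median -0.94). Ctps, which makes CTP, was at 72.9, 71.3 and 80.4 CPM with DMSO and 32.2, 15.1 and 10.7 CPM with TEPP-46 (-1.94 ± 0.44, adjusted p = 0.0189). Shmt1, the cytosolic serine hydroxymethyltransferase, was at 79.5, 79.4 and 66.3 CPM with DMSO and 24.8, 25.2 and 10.7 CPM with TEPP-46 (-1.89 ± 0.41, adjusted p = 0.0149). All TEPP-46 libraries were below all DMSO libraries for both. The folate enzymes Mthfd1 and Aldh1l2 fell, with changes of -1.63 and -3.5, as did the pyrimidine enzyme Cad with -1.58 and the purine enzymes Gart, Gmps, Prps1 and Adsl with -1.1, -1.05, -0.89 and -0.83. None of the 9 was kept throughout, and each lost its call without at least 1 of resting replicate 1, 4 or 5, DMSO replicate 1, 4 or 5 or TEPP-46 replicate 4 or 5 (highest adjusted p = 0.17). In this list, leaving out DMSO replicate 1, 4 or 5 gave 0, 1 and 0 falls in turn, and leaving out TEPP-46 replicate 1, 4 or 5 gave 17, 7 and 0.

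Ribosome biogenesis genes act in the nucleolus and are classical MYC targets. Of 30 tested, 12 fell with TEPP-46 and none rose, the median was -0.71, and the library medians were -0.73, -0.56 and -0.96. Nop16 was at 79.99, 74.6 and 68.3 CPM with DMSO and 26.95, 24.4 and 18.1 CPM with TEPP-46 (-1.68 ± 0.24, adjusted p = 0.0032). Nop56 and Nop58, core proteins of the box C/D snoRNPs, were at 349, 386 and 364 CPM with DMSO and 190.3, 147 and 115 CPM with TEPP-46 (-1.28 ± 0.21, adjusted p = 0.00598) and at 212, 204 and 213 CPM with DMSO and 106, 85.7 and 61.5 CPM with TEPP-46 (-1.31 ± 0.24, adjusted p = 0.0086). In these 3 genes, kept throughout, the groups did not overlap, and each was also lower with TEPP-46 than in resting cells. The resting levels were 52.2 ± 9.11 CPM (SD, n = 3) for Nop16, 309 ± 12.6 CPM (SD, n = 3) for Nop56 and 153 ± 28.8 CPM (SD, n = 3) for Nop58. The other falls were Gnl3 (-1.52), Rrp9 (-1.24), Dkc1 (-1.06), Wdr43 (-1.06), Fbl (-0.9), Nop2 (-0.88), Ddx21 (-0.76), Ncl (-0.74) and Utp4 (-0.68), which lost their calls without at least 1 of resting replicate 4 or 5, DMSO replicate 1, 4 or 5 or TEPP-46 replicate 4 or 5 (highest adjusted p = 0.166). Among these genes, leaving out DMSO replicate 1, 4 or 5 gave 4, 3 and 3 falls in turn, and leaving out TEPP-46 replicate 1, 4 or 5 gave 14, 12 and 3. The E-box CACGTG was in the promoter of 1 of 11 fallen members with an entry (Nop2) and in 6.49% of all promoters.

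Myc fell, and the MYC network genes Mxd1, Mxd4 and Mlxip rose. Myc was at 977, 523 and 512 CPM with DMSO and 291, 70.6 and 84.8 CPM with TEPP-46 (-2.17 ± 0.65, adjusted p = 0.0455), and its call was lost without resting replicate 4 or 5, DMSO replicate 1, 4 or 5 or TEPP-46 replicate 4 or 5 (highest adjusted p = 0.153). Mxd1, a repressor that competes with MYC for MAX, was at 78.02, 82.8 and 77.6 CPM with DMSO and 306, 187 and 295 CPM with TEPP-46 (1.73 ± 0.23, adjusted p = 0.0027), above its resting level of 84.8 ± 13.3 CPM (SD, n = 3), and was kept throughout. Mxd4, a related repressor, and Mlxip, the glucose-sensing factor MondoA, rose by 1.19 and 1.02, and lost their calls without DMSO replicate 1, 4 or 5 or TEPP-46 replicate 5 (highest adjusted p = 0.089). Txnip, a textbook MondoA target that restrains glucose uptake, was at 59.6, 45.8 and 96.8 CPM with DMSO and 186, 255 and 341 CPM with TEPP-46 (1.95 ± 0.33, adjusted p = 0.00606), near the resting 283 ± 56.4 CPM (SD, n = 3), and was kept throughout. In all, 3 of 10 tested genes of the MYC network rose and 1 fell. Leaving out DMSO replicate 1, 4 or 5 gave 1, 1 and 1 rises, and leaving out TEPP-46 replicate 1, 4 or 5 gave 4, 3 and 1. Of polyamine and iron genes, 4 of 13 fell: the polyamine synthases Srm and Sms (-2.28 and -1.2), the transferrin receptor Tfrc (-1.72) and the ferritin light chain Ftl1 (-0.66). Tfrc was at 359.7, 204 and 265 CPM with DMSO and 138, 52.9 and 60.2 CPM with TEPP-46, and its lowest DMSO library stayed above its highest TEPP-46 library. These 4 each lost the call without at least 1 of resting replicate 4 or 5, DMSO replicate 1, 4 or 5 or TEPP-46 replicate 4 or 5 (highest adjusted p = 0.154). For polyamine and iron genes, leaving out DMSO replicate 1, 4 or 5 gave 0, 1 and 0 falls. The numbers were 4, 3 and 0 without TEPP-46 replicate 1, 4 or 5.

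**Figure D4:**
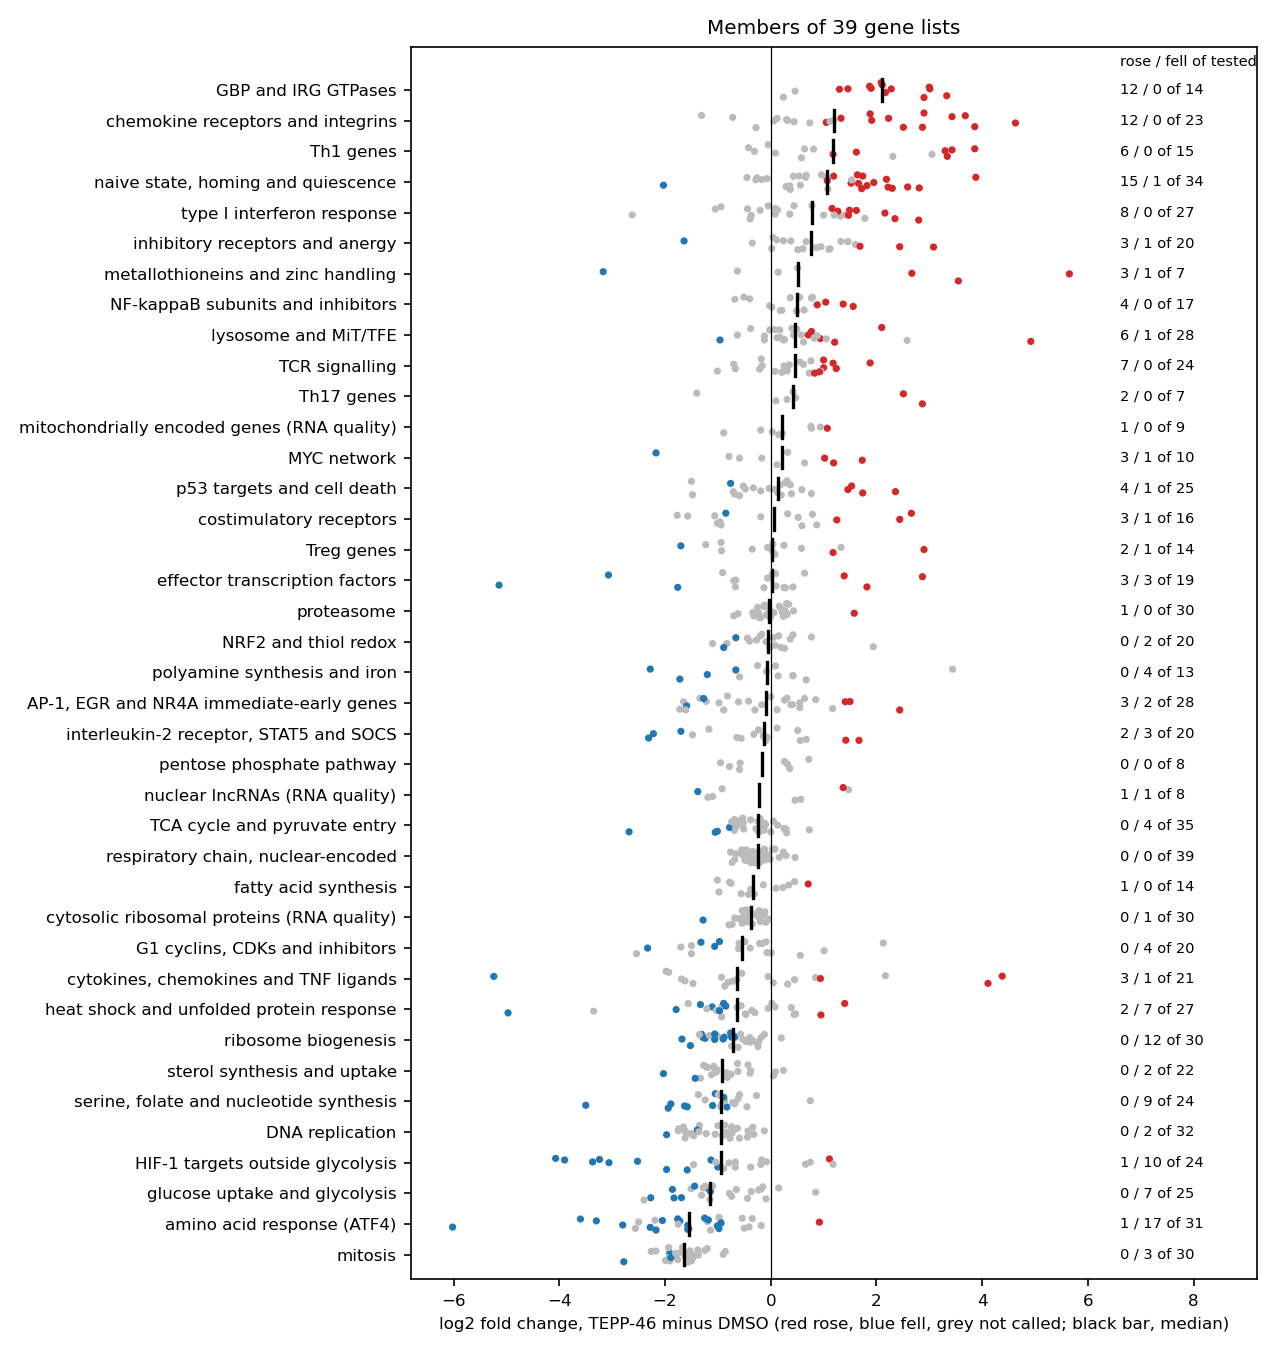
Log2 fold change (TEPP-46 minus DMSO) of every tested member of 39 gene lists, 1 row per list ordered by its median (black bar), with rises red, falls blue and members not called grey, and the counts at the right. Mitosis, the amino acid response, glycolysis, HIF-1 targets and DNA replication have the lowest medians, and GBP and IRG GTPases have the highest, 2.1.

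Genes of cell division differed between the TEPP-46 libraries more than any other group shown in the plot of library medians. Of 30 mitosis genes, 3 fell and none rose, the median was -1.64, and the library medians were -0.41, -3.52 and -3.35. Mki67, a proliferation marker, was at 295, 330.2 and 308 CPM with DMSO and 188, 33.6 and 25.6 CPM with TEPP-46 (-1.91 ± 0.61, adjusted p = 0.0552). Cenpf, a kinetochore protein, was at 128, 149.7 and 154 CPM with DMSO and 81.4, 16.8 and 15.5 CPM with TEPP-46 (-1.91 ± 0.57, adjusted p = 0.0462), Prc1, which bundles spindle microtubules, and Anln, which acts in cytokinesis, had changes of -1.89 and -2.78. In Mki67, Cenpf and Prc1, replicate 1 was below the DMSO libraries. Replicates 4 and 5 lay further down, between replicate 1 and the resting level, 5.38 ± 2.69 CPM (SD, n = 3) for Cenpf. Anln was at 11.3, 0 and 4.21 CPM with TEPP-46 and at 3.67 ± 0.993 CPM (SD, n = 3) in resting cells. Among mitosis genes, leaving out DMSO replicate 1, 4 or 5 gave 0, 0 and 0 falls in turn, and leaving out TEPP-46 replicate 1, 4 or 5 gave 30, 1 and 0. Leaving out resting replicate 1, 4 or 5 gave 1, 0 and 1, and the 3 calls were lost without at least 1 of resting replicate 1, 4 or 5, DMSO replicate 1, 4 or 5 or TEPP-46 replicate 4 or 5 (highest adjusted p = 0.138). In the same libraries the ribosomal protein genes had library medians of 0.46, -1.62 and -0.64, and the nuclear lncRNAs summed to 3384, 13479 and 13857 CPM; the part of RNA quality was not tested. Of 32 DNA replication genes, 2 fell, a share near the 6.43% of all genes tested, the polymerase delta subunits Pold1 (-1.97) and Pold2 (-1.39), and the library medians were -0.09, -2.01 and -2.23. Pold1 was at 336, 356 and 404 CPM with DMSO and 184, 47.9 and 45.9 CPM with TEPP-46. Here, leaving out DMSO replicate 1, 4 or 5 gave 0, 1 and 0 falls in turn, and leaving out TEPP-46 replicate 1, 4 or 5 gave 29, 2 and 0, and Pold1 and Pold2 lost their calls without at least 1 of DMSO replicate 1, 4 or 5 or TEPP-46 replicate 5 (highest adjusted p = 0.0763).

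Upstream of these, 4 of 20 tested regulators of the G1 phase fell. Cdk6, the G1 kinase that pairs with D cyclins (chr5:3341485-3531008), was at 467, 453 and 408 CPM with DMSO and 78.4, 117 and 69.2 CPM with TEPP-46 (-2.33 ± 0.28, adjusted p = 0.00189). Its libraries were well apart, with replicate 1 as low as the other TEPP-46 libraries, and the call was kept throughout. Ccnd3, a D cyclin, Cdc25a, a phosphatase that activates CDKs, and Rb1, the retinoblastoma protein, fell, with changes of -1.32, -1.06 and -0.97, and lost their calls without at least 1 of DMSO replicate 1, 4 or 5 or TEPP-46 replicate 4 or 5 (highest adjusted p = 0.091). Among G1 regulators, leaving out DMSO replicate 1, 4 or 5 gave 2, 1 and 1 falls and leaving out TEPP-46 replicate 1, 4 or 5 gave 11, 3 and 1.

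**Figure D5:**
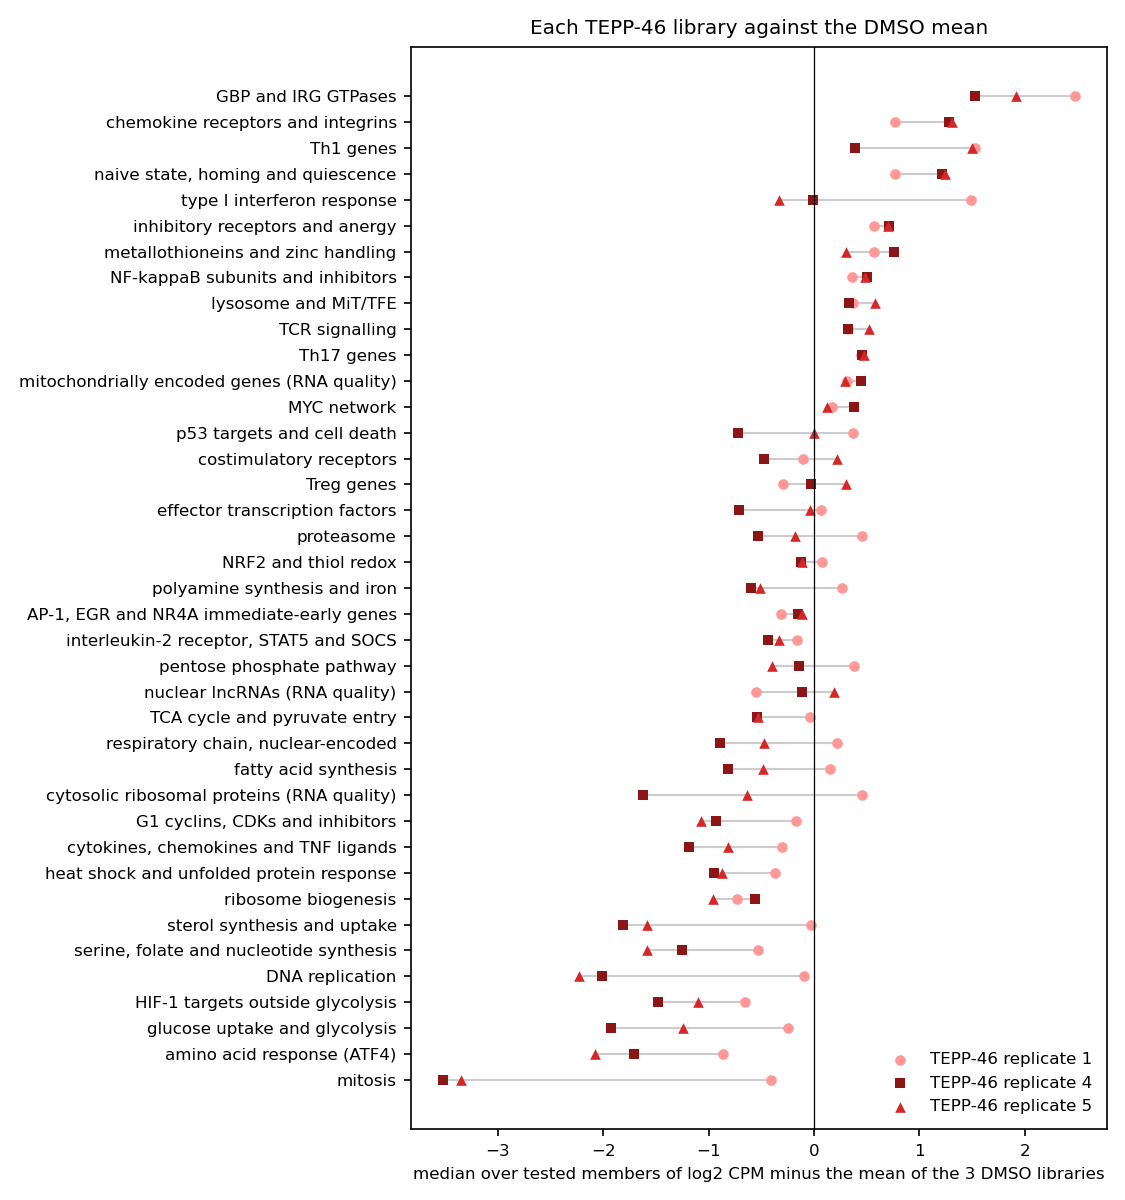
Median over the tested members of each list of log2 CPM minus the mean of the DMSO libraries, with 1 point for each TEPP-46 library and a grey line over their range. Mitosis genes lie at -0.41, -3.52 and -3.35 in replicates 1, 4 and 5, whereas ribosome biogenesis genes lie at -0.73, -0.56 and -0.96.

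Signals and responses of the interleukin-2 axis were mixed. Interleukin-2 drives the growth of activated T cells through JAK1, JAK3 and STAT5, and CISH and SOCS2 are induced by STAT5 and damp it. Of 20 tested genes, 3 fell and 2 rose, against 6.43% and 9.72% of all genes tested. Socs2 was at 148, 181 and 159 CPM with DMSO and 44.8, 25.6 and 27.5 CPM with TEPP-46 (-2.31 ± 0.36, adjusted p = 0.00455), and Cish at 338, 297 and 299.9 CPM with DMSO and 127, 26.5 and 46.3 CPM with TEPP-46 (-2.22 ± 0.47, adjusted p = 0.0142). Il2ra, a receptor subunit and activation marker (chr2:11642807-11693193), was at 1449, 1655 and 1489 CPM with DMSO and 833, 274 and 311 CPM with TEPP-46 (-1.7 ± 0.44, adjusted p = 0.0288). Its levels were lower in all TEPP-46 libraries but remained above the resting 43.3 ± 19.5 CPM (SD, n = 3). Jak1 was at 505, 545 and 586 CPM with DMSO and 1202, 2037 and 1972 CPM with TEPP-46 (1.67 ± 0.25, adjusted p = 0.00384), close to the resting 2063 ± 271 CPM (SD, n = 3), and the common gamma chain gene Il2rg rose by 1.42. Socs2 and Jak1 were kept throughout; Cish, Il2ra and Il2rg each lost the call without at least 1 of DMSO replicate 1, 4 or 5 or TEPP-46 replicate 4 or 5 (highest adjusted p = 0.11). Il2 itself, at 5.15, 2.64 and 2.02 CPM with DMSO and 1.93, 4.62 and 0 CPM with TEPP-46 (-0.64 ± 0.92, adjusted p = 0.654), did not pass the test.

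Of 21 tested cytokines, chemokines and TNF family ligands, 1 fell and 3 rose, against 6.43% and 9.72% of all genes tested. The fall was that of Lta, above. Csf1, which supports macrophages, was at 0.736, 0.48 and 0.756 CPM with DMSO and 9.63, 14.7 and 18.8 CPM with TEPP-46 (4.38 ± 0.54, adjusted p = 0.00209), and Ccl22, a chemokine for CCR4-bearing cells, was at 1.72, 1.44 and 1.01 CPM with DMSO and 15.1, 30.7 and 27.8 CPM with TEPP-46 (4.11 ± 0.56, adjusted p = 0.00276). Both were nearly absent with DMSO and were kept throughout. Tnfsf8, the CD30 ligand, rose by 0.94, but not without resting replicate 4, DMSO replicate 1, 4 or 5 or TEPP-46 replicate 5 (highest adjusted p = 0.132). Ifng, interferon gamma, was at 3.19, 0.96 and 1.51 CPM with DMSO and 4.13, 0 and 0.971 CPM with TEPP-46 (-0.05 ± 0.88, adjusted p = 0.976). With this overlap of the groups and this standard error, neither a rise nor a fall of Ifng was detectable. Il17a and Csf2 had too few counts to test.

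Transcription factors of effector cells moved in both directions: 3 of 19 fell and 3 rose, against 6.43% and 9.72% of all genes tested. Zbtb32, a repressor induced on activation, was at 176, 79.4 and 106 CPM with DMSO and 29.98, 4.62 and 7.44 CPM with TEPP-46 (-3.07 ± 0.58, adjusted p = 0.00952), and Nfil3, an interleukin-3-regulated factor, was at 119, 133 and 129.8 CPM with DMSO and 48.1, 27.7 and 36.2 CPM with TEPP-46 (-1.76 ± 0.28, adjusted p = 0.00529), both kept throughout with Batf3. Maf, which acts in Th17 and follicular helper cells, was at 6.87, 6.24 and 7.56 CPM with DMSO and 14.3, 68.1 and 69.6 CPM with TEPP-46 (2.87 ± 0.51, adjusted p = 0.00788) and was also kept throughout. TEPP-46 replicate 1 lay nearest to DMSO in all 3. Myb and Id2 rose by 1.82 and 1.39, and lost their calls without at least 1 of DMSO replicate 1, 4 or 5 or TEPP-46 replicate 5 (highest adjusted p = 0.0675). Tbx21, the Th1 factor T-bet, had a change of 0.64 ± 0.56, adjusted p = 0.443. Batf and Irf4, which act together in activated T cells, had changes of 0.42 and 0.1 and were not called.

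Among immediate early genes the calls went in both directions. Of 28 tested, 3 rose and 2 fell, shares near the 9.72% and 6.43% of all genes tested. Btg2, an antiproliferative gene, was at 116, 169 and 122 CPM with DMSO and 408, 821 and 972 CPM with TEPP-46 (2.44 ± 0.33, adjusted p = 0.00277), against 775 ± 142 CPM (SD, n = 3) in resting cells, and was kept throughout. Jun and Zfp36, which destabilises cytokine transcripts, rose by 1.41 and 1.5, while the nuclear receptors Nr4a2 and Nr4a3 fell, with changes of -1.59 and -1.27. These 4 calls were lost without at least 1 of resting replicate 5, DMSO replicate 1, 4 or 5 or TEPP-46 replicate 4 or 5 (highest adjusted p = 0.137). Cd69, the early activation marker, was at 351, 286 and 258 CPM with DMSO and 403, 111 and 211 CPM with TEPP-46 (-0.3 ± 0.39, adjusted p = 0.616), with overlapping groups. In the NF-κB list, 4 of 17 rose and none fell. Leaving out DMSO replicate 1, 4 or 5 gave 2, 2 and 2 rises, and leaving out TEPP-46 replicate 1, 4 or 5 gave 5, 3 and 4. Tnfaip3, the inhibitor A20, was at 87.3, 155 and 140.1 CPM with DMSO and 277, 302 and 409.9 CPM with TEPP-46 (1.37 ± 0.26, adjusted p = 0.00952), and Traf1, a TNF receptor adaptor, was at 194, 149 and 142 CPM with DMSO and 373, 472 and 587 CPM with TEPP-46 (1.56 ± 0.24, adjusted p = 0.00455), both kept throughout. Nfkbie, an inhibitor of NF-κB, rose by 1.04 and Bcl3, a nuclear cofactor of it, by 0.88, but each lost its call without at least 1 of resting replicate 1, 4 or 5, DMSO replicate 1, 4 or 5 or TEPP-46 replicate 4 (highest adjusted p = 0.163), and Bcl3 also not with total-count scaling.

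Many genes of the naive state, homing and quiescence rose. Of 34 tested, 15 rose and 1 fell, against 9.72% and 6.43% of all genes, with a median of 1.07 and library medians of 0.77, 1.21 and 1.24. S1pr1, the receptor that lets lymphocytes leave lymphoid organs (chr3:115710433-115715072), was at 21.6, 55.2 and 37.6 CPM with DMSO and 248, 653 and 786 CPM with TEPP-46 (3.88 ± 0.48, adjusted p = 0.00209), still below the resting 1575 ± 293 CPM (SD, n = 3). Tcf7, the factor TCF-1 of naive and memory cells, was at 268, 370.2 and 317 CPM with DMSO and 917, 2174 and 1627 CPM with TEPP-46 (2.3 ± 0.33, adjusted p = 0.00315), and in resting cells at 1373 ± 289 CPM (SD, n = 3). In both genes the highest DMSO library was below the lowest TEPP-46 library. Slfn1 was at 69.4, 64.3 and 55.2 CPM with DMSO and 442, 354 and 526 CPM with TEPP-46 (2.81 ± 0.23, adjusted p = 0.000405) and Slfn2 at 73.4, 66.7 and 47.1 CPM with DMSO and 322, 239 and 311 CPM with TEPP-46 (2.22 ± 0.29, adjusted p = 0.00233), 2 Schlafen genes tied to quiescence, and Klf3, a Krüppel-like repressor, rose by 1.64. Il7r, the interleukin-7 receptor, Lef1, the partner of TCF-1, Bach2, a repressor of effector genes, and Klf2, which drives S1pr1, rose by 1.72, 1.19, 1.74 and 2.59. Pik3ip1, an inhibitor of PI3-kinase, and Gimap6 rose by 1.82 and 1.07. The fall was that of Klf4 (-2.03). Slfn1, Slfn2, S1pr1, Tcf7, Klf3 and Gimap4 were kept throughout, and the others here lost their calls without at least 1 of resting replicate 4, DMSO replicate 1, 4 or 5 or TEPP-46 replicate 4 or 5 (highest adjusted p = 0.131). Over the whole list, leaving out DMSO replicate 1, 4 or 5 gave 8, 12 and 8 rises in turn, and leaving out TEPP-46 replicate 1, 4 or 5 gave 17, 15 and 11. B cells also express S1pr1, and the B cell markers were higher in the TEPP-46 than in the DMSO libraries, most of all in replicate 4. The part of B cells in the result was not tested.

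Many receptors that place T cells in tissues were higher. Of 23 tested chemokine receptors and integrins, 12 rose and none fell (median 1.19). Cxcr3, the Th1 homing receptor (chrX:101731535-101734269), was at 9.32, 6 and 5.54 CPM with DMSO and 44.8, 73.9 and 107 CPM with TEPP-46 (3.43 ± 0.36, adjusted p = 0.0013). Cxcr6 was at 3.68, 0.96 and 2.27 CPM with DMSO and 13.2, 25.2 and 51.1 CPM with TEPP-46 (3.68 ± 0.66, adjusted p = 0.00796), and S1pr4 at 32.4, 63.1 and 44.9 CPM with DMSO and 167, 230.2 and 263 CPM with TEPP-46 (2.23 ± 0.29, adjusted p = 0.00233). Ccr2, also a monocyte marker, had 3 counts with DMSO and 59 with TEPP-46 (ratio 26.4, 95% counting interval 8.59 to 132; adjusted p = 0.00598). The groups were separate for each of the 4, all kept throughout. Itgb3, an integrin of platelets and some T cells, was at 21.6, 37.2 and 31.8 CPM with DMSO and 167, 259.6 and 236 CPM with TEPP-46 (2.87 ± 0.54, adjusted p = 0.00911), and its rise was lost only without DMSO replicate 5 (adjusted p = 0.0511). Ccr6, Cxcr5, Cxcr4, Itgb7, Itgae and Selplg, the P-selectin ligand, rose by 2.51, 1.91, 1.88, 1.33, 2.9 and 1.05, and lost their calls without at least 1 of resting replicate 1, 4 or 5, DMSO replicate 1, 4 or 5 or TEPP-46 replicate 4 or 5 (highest adjusted p = 0.168). Itgae overlapped between the groups, at 0.736, 1.44 and 2.27 CPM with DMSO and 2.2, 26.05 and 6.15 CPM with TEPP-46. Among these receptors, leaving out DMSO replicate 1, 4 or 5 gave 6, 5 and 4 rises in turn, and leaving out TEPP-46 replicate 1, 4 or 5 gave 13, 8 and 6. Cxcr5 and Ccr6 are also expressed by B cells, Ccr2 by monocytes and Itgb3 by platelets. Among the activated libraries, markers of these cells were highest in TEPP-46 replicate 4, and the part of such cells was not tested. The platelet and monocyte marker sums include Itgb3 and Ccr2 themselves.

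A few costimulatory and inhibitory receptors rose, and 1 of each list fell. Of 16 costimulatory receptors, 3 rose and 1 fell, against 9.72% and 6.43% of all genes tested. Cd27 was at 59.6, 141 and 93.2 CPM with DMSO and 458, 694 and 705 CPM with TEPP-46 (2.66 ± 0.33, adjusted p = 0.0022), and Slamf6 at 48.1, 34.3 and 39.6 CPM with DMSO and 189, 225 and 250.4 CPM with TEPP-46 (2.44 ± 0.23, adjusted p = 0.000716), both kept throughout. Cd28, the receptor that the activating antibody engages, rose by 1.25, and Slamf1 fell (-0.85); they each lost the call without at least 1 of DMSO replicate 1, 4 or 5 or TEPP-46 replicate 5 (highest adjusted p = 0.12). Among 20 inhibitory and anergy genes, 3 rose and 1 fell, to be set against the same shares. Dgka, a diacylglycerol kinase that limits signalling from the T cell receptor, was at 149, 272 and 209.7 CPM with DMSO and 737, 1347 and 1334 CPM with TEPP-46 (2.44 ± 0.31, adjusted p = 0.0022), and the receptor gene Cd101 at 4.17, 9.12 and 6.05 CPM with DMSO and 53.9, 27.7 and 82.5 CPM with TEPP-46 (3.08 ± 0.44, adjusted p = 0.00334), both kept throughout. Nt5e, which encodes CD73, rose by 1.69, and Cd200 fell, with a change of -1.64, and both were lost without at least 1 of DMSO replicate 1, 4 or 5 or TEPP-46 replicate 4 or 5 (highest adjusted p = 0.129). Ctla4, Lag3 and Pdcd1 (PD-1) had changes of -0.35, 0.51 and 1.46 and were not called.

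Components of the T cell receptor and its signalling chain were higher where they passed the test. In the signalling list 7 of 24 rose and none fell, with a median of 0.45. Prkcq, protein kinase C theta, was at 129.8, 177 and 114 CPM with DMSO and 464, 548 and 544 CPM with TEPP-46 (1.88 ± 0.33, adjusted p = 0.00758). The phosphatase genes Ubash3a, Ubash3b and Ptpn22, which restrain the receptor, rose by 1.24, 0.92 and 1.18, and Cd6 and Nfatc1 by 0.83 and 1.0. Each of these lost its call without at least 1 of resting replicate 4 or 5, DMSO replicate 1, 4 or 5 or TEPP-46 replicate 4 or 5 (highest adjusted p = 0.154). In the signalling list, leaving out DMSO replicate 1, 4 or 5 gave 1, 2 and 0 rises and leaving out TEPP-46 replicate 1, 4 or 5 gave 9, 5 and 2. In the T cell identity list, 4 of 13 rose. Cd247, the zeta chain of the receptor complex, was at 124, 137 and 135 CPM with DMSO and 463, 245 and 444 CPM with TEPP-46 (1.54 ± 0.26, adjusted p = 0.00634) and was kept throughout, though other annotated genes cover 60.3% of its exon bases. Cd3e and the constant segments Trbc1 and Trbc2, near-identical copies whose counts are uncertain, rose by 1.2, 1.23 and 1.25, but each lost its call without at least 1 of DMSO replicate 1, 4 or 5 or TEPP-46 replicate 5 (highest adjusted p = 0.127). Among identity genes, leaving out DMSO replicate 1, 4 or 5 gave 1, 3 and 1 rises and leaving out TEPP-46 replicate 1, 4 or 5 gave 5, 6 and 3. Of 60 tested variable segment genes of the receptor, a group chosen after the values were seen, 13 rose and none fell, with a median of 0.95, and all 144 in the table summed to 300.6, 541.3 and 391.1 CPM with DMSO and 993.1, 855.8 and 1066 CPM with TEPP-46.

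For the helper lineages, 6 of 15 Th1 genes rose and none fell. Ifngr1, the receptor of interferon gamma, was at 103, 212 and 140.4 CPM with DMSO and 921, 1426 and 2257 CPM with TEPP-46 (3.34 ± 0.71, adjusted p = 0.0139), and Ly6c1, a surface protein of memory and interferon-exposed T cells, was at 33.6, 29.3 and 32.8 CPM with DMSO and 662, 89.9 and 189.9 CPM with TEPP-46 (3.3 ± 0.71, adjusted p = 0.0143), highest in replicate 1. Stat4, which relays interleukin-12, rose by 1.18. These 3 lost their calls without at least 1 of DMSO replicate 1, 4 or 5 or TEPP-46 replicate 5 (highest adjusted p = 0.101). Among Th1 genes, leaving out DMSO replicate 1, 4 or 5 gave 3, 3 and 2 rises and leaving out TEPP-46 replicate 1, 4 or 5 gave 7, 7 and 4. Of 7 Th17 genes, Maf and Ccr6 rose. Of 14 regulatory T cell genes, 2 rose and 1 fell, against 9.72% and 6.43% of all genes tested. Foxp3, the lineage factor, was at 25.5, 33.1 and 30.7 CPM with DMSO and 44.8, 76.5 and 81.8 CPM with TEPP-46 (1.18 ± 0.32, adjusted p = 0.0321). The other calls were the rise of Itgae and the fall of Il2ra. Foxp3 did not pass without DMSO replicate 1, 4 or 5 or TEPP-46 replicate 4 or 5 (highest adjusted p = 0.122).

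Interferon-inducible GTPases had the highest median of the 39 lists in the plot of list members, 2.1: 12 of 14 rose and none fell. The guanylate-binding proteins (GBP) and immunity-related GTPases (IRG) attack the vacuoles of intracellular pathogens and are induced mainly by interferon gamma. Tgtp2 (chr11:49057194-49064206) was at 68.2, 39.4 and 21.7 CPM with DMSO and 469.7, 442 and 388 CPM with TEPP-46 (3.33 ± 0.36, adjusted p = 0.00145), and Gbp4 at 166, 112 and 155 CPM with DMSO and 656, 456 and 496 CPM with TEPP-46 (1.9 ± 0.23, adjusted p = 0.00209). Iigp1 was at 93.2, 46.1 and 47.4 CPM with DMSO and 894, 252 and 352 CPM with TEPP-46 (3.01 ± 0.49, adjusted p = 0.00547). Gbp9, Gbp6, Gbp7 and Tgtp1 rose by 2.11, 2.17, 1.87 and 2.9. In these 7 genes, kept throughout, no TEPP-46 library overlapped a DMSO library. Gbp2, Irgm1, Irgm2, Igtp and Gbp3 rose by 2.28, 3.0, 2.09, 1.3 and 1.46, but each lost its call without at least 1 of resting replicate 4, DMSO replicate 1, 4 or 5 or TEPP-46 replicate 1, 4 or 5 (highest adjusted p = 0.164). Unlike most groups, this list differed most from DMSO in TEPP-46 replicate 1, with library medians of 2.48, 1.53 and 1.92. Among the GTPases, leaving out DMSO replicate 1, 4 or 5 gave 10, 7 and 7 rises in turn, and leaving out TEPP-46 replicate 1, 4 or 5 gave 11, 11 and 10. Tgtp1 and Tgtp2 are near-identical copies, as are several GBP genes, so the split of counts among them is uncertain.

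The interferon-gamma activated site, TTCNNNGAA (its own reverse complement), was found in 5 of 8 risen members with a promoter in the table (Gbp7, Igtp, Irgm2, Tgtp1 and Tgtp2), in 6.72% of all promoters and in 5.89% of those of tested genes. Members that did not rise were not counted, so whether the match goes with the rise was not tested. The promoter of Tgtp2 (chr11:49064213-49064462, minus strand) is shown because that gene had the largest rise of the list, with its 1 match in capitals.
Tgtp2: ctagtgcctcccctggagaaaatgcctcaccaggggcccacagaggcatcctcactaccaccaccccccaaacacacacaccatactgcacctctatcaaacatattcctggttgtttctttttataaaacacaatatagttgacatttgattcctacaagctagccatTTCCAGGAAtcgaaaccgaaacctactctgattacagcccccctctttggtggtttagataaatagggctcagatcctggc

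Type I interferon response genes moved less uniformly: 8 of 27 rose and none fell (library medians 1.49, -0.01 and -0.33). Irf9, a subunit of the ISGF3 complex, was at 71.2, 70.5 and 68.8 CPM with DMSO and 199, 175 and 216 CPM with TEPP-46 (1.49 ± 0.19, adjusted p = 0.00233), and it was kept throughout and tight within each group. Zbp1, a sensor of Z-form nucleic acids, was at 53.2, 53.03 and 42.6 CPM with DMSO and 330.3, 194 and 234 CPM with TEPP-46 (2.35 ± 0.48, adjusted p = 0.0126). Parp14, Ifit2, Ddx58, Ifit3 and Rtp4 rose by 1.47, 1.27, 1.16, 2.8 and 2.16, and with Zbp1 lost their calls without at least 1 of resting replicate 4 or 5, DMSO replicate 1, 4 or 5 or TEPP-46 replicate 1, 4 or 5 (highest adjusted p = 0.141). Over these genes, leaving out DMSO replicate 1, 4 or 5 gave 4, 3 and 2 rises and leaving out TEPP-46 replicate 1, 4 or 5 gave 7, 8 and 6. Textbook members such as Isg15, Ifit1, Mx2 and Rsad2 had changes of -1.05, -0.05, -0.2 and 0.08 and were not called. Ifit1bl1, which is outside that list, was at 0.245, 0.96 and 0.252 CPM with DMSO and 30.5, 52.5 and 34.3 CPM with TEPP-46 (6.22 ± 0.47, adjusted p = 0.000293) and was kept throughout. The immunoproteasome gene Psmb10, at 29.4, 39.6 and 36.04 CPM with DMSO and 112, 94.5 and 107 CPM with TEPP-46 (1.58 ± 0.28, adjusted p = 0.00782), was the only one of 30 proteasome genes called, whereas 8 others fell without TEPP-46 replicate 1.

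The PYHIN family of interferon-inducible DNA sensors, picked as a group after the values were seen, included 4 of the 12 largest rises named by rule. Of 8 tested, 7 rose, and the median was 4.96. Ifi209 (chr1:173630917-173647928), the gene with the smallest adjusted p of all, was at 9.57, 8.4 and 7.56 CPM with DMSO and 273, 228 and 269 CPM with TEPP-46 (4.91 ± 0.26, adjusted p = 2.69e-05). Ifi206 was at 3.68, 3.6 and 3.02 CPM with DMSO and 112, 119.7 and 101 CPM with TEPP-46 (5.0 ± 0.57, adjusted p = 0.00181), Ifi213 at 0.491, 0.24 and 0.504 CPM with DMSO and 30.3, 35.7 and 31.4 CPM with TEPP-46 (6.2 ± 0.68, adjusted p = 0.00153), and Ifi214 at 0.491, 0.24 and 1.26 CPM with DMSO and 39.9, 59.7 and 35.9 CPM with TEPP-46 (6.03 ± 0.56, adjusted p = 0.000716). Each was under 10 CPM in every DMSO library, and the TEPP-46 libraries lay close together. Resting cells were at 273 ± 65.5 CPM (SD, n = 3) for Ifi209 and at 116 ± 78.5 CPM (SD, n = 3) for Ifi206. Ifi208, Mndal and Ifi203 rose by 5.67, 2.39 and 2.3, and Aim2, the sensor of the inflammasome, had a change of -0.21 and was not called. The genes lie side by side on chromosome 1 as closely related copies, so how reads were divided among them is uncertain. Of the Schlafen family, also picked afterwards, 3 of 7 tested rose (Slfn1, Slfn2 and Slfn8, the last by 2.45). Of 8 GIMAP genes, which support lymphocyte survival and were likewise picked afterwards, 6 rose, against 9.72% of all genes tested. Gimap1 (2.01), Gimap4 (1.66) and Gimap8 (1.6) were kept throughout. Gimap3 (1.46), Gimap6 (1.07) and Gimap9 (1.02) were not.

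Stress and death genes gave a mixed picture. Of 27 heat shock and unfolded protein response genes, 7 fell and 2 rose. Hspa9, the mitochondrial HSP70, was at 773, 532 and 578 CPM with DMSO and 290.1, 130.2 and 124 CPM with TEPP-46 (-1.79 ± 0.33, adjusted p = 0.00871) and was kept throughout. Hspd1, the mitochondrial HSP60, Hsp90aa1, Canx, Pdia6 and Hyou1, all chaperones, fell, with changes of -1.33, -1.11, -0.97, -0.89 and -0.85, and Pdia3 and Dnajb9 rose by 0.95 and 1.4. Except for Hspa9, these calls were lost without at least 1 of resting replicate 1, 4 or 5, DMSO replicate 1, 4 or 5 or TEPP-46 replicate 4 or 5 (highest adjusted p = 0.154). Among chaperones and stress genes, leaving out DMSO replicate 1, 4 or 5 gave 2, 1 and 1 falls and leaving out TEPP-46 replicate 1, 4 or 5 gave 14, 3 and 1. Of 25 genes of p53 and cell death, 4 rose and 1 fell, against 9.72% and 6.43% of all genes tested. Bcl2l11, the death inducer BIM, was at 24.3, 41.8 and 36.8 CPM with DMSO and 166, 156 and 207 CPM with TEPP-46 (2.36 ± 0.38, adjusted p = 0.00546). Sesn1 and Sesn3, sestrins that restrain mTORC1, rose by 1.46 and 1.53, and Trp53inp1 by 1.74, and all 4 rises were kept throughout. Classical p53 targets such as Cdkn1a, Mdm2 and Bax had changes of -1.5, 0.18 and 0.13 and were not called, and Zmat3 fell (-0.76), though not without resting replicate 4 or 5, DMSO replicate 1, 4 or 5 or TEPP-46 replicate 4 or 5 (highest adjusted p = 0.142).

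Lysosomal genes rose in part: 6 of 28 rose and 1 fell. Ctsa, cathepsin A, was at 64.8, 93.1 and 76.9 CPM with DMSO and 220.3, 356 and 434 CPM with TEPP-46 (2.1 ± 0.29, adjusted p = 0.00288) and, with Gpnmb, was kept throughout. Lamp1, a lysosomal membrane protein, rose by 0.94, Hexa by 0.77 and the proton pump subunit Atp6v0d1 by 0.71, and Ctsz fell (-0.96); each of these 4 lost its call without at least 1 of resting replicate 4 or 5, DMSO replicate 1, 4 or 5 or TEPP-46 replicate 4 or 5 (highest adjusted p = 0.182). Among lysosomal genes, leaving out DMSO replicate 1, 4 or 5 gave 3, 2 and 2 rises and leaving out TEPP-46 replicate 1, 4 or 5 gave 11, 6 and 4. Of 20 tested genes of the NRF2 and thiol response to oxidants, 2 fell, Sod2 (-0.89) and Ftl1, and none rose. Of all genes tested, 6.43% fell and 9.72% rose. Sod2 was at 104, 109.9 and 97.03 CPM with DMSO and 70.4, 40.3 and 57.3 CPM with TEPP-46, and its call was lost without DMSO replicate 1, 4 or 5 or TEPP-46 replicate 5 (highest adjusted p = 0.0961).

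Genes that mark other cells are reported with their libraries because they include large fold changes. Ighm, the immunoglobulin mu chain, was at 217, 233 and 239 CPM with DMSO and 852, 849 and 658 CPM with TEPP-46 (1.77 ± 0.2, adjusted p = 0.00158), even over the TEPP-46 libraries and kept throughout, and in resting cells it was at 1712 ± 89.04 CPM (SD, n = 3). Igkc, the kappa light chain constant region, was at 3.43, 3.84 and 3.53 CPM with DMSO and 5.78, 122 and 20.4 CPM with TEPP-46 (3.75 ± 0.95, adjusted p = 0.0271). It was highest in replicate 4, and its call was lost without DMSO replicate 1, 4 or 5 or TEPP-46 replicate 4 (highest adjusted p = 0.1). Klrd1 and Klrk1, receptors shared by NK cells and some T cells, also rose and were kept throughout. Klrd1 had 1 count with DMSO and 130 with TEPP-46 (ratio 174, 95% counting interval 30.7 to 6940; adjusted p = 0.00294), and Klrk1 was at 1.72, 1.68 and 2.02 CPM with DMSO and 54.2, 10.9 and 16.5 CPM with TEPP-46 (3.9 ± 0.65, adjusted p = 0.00598), while Nkg7 and Eomes, further NK cell genes, had changes of -0.73 and -0.66 and were not called. Klrb1c had 1 count with DMSO and 0 with TEPP-46. Ncr1, which marks NK cells, was at 0 in all DMSO libraries. Malat1, an abundant nuclear lncRNA, was at 2067, 4119 and 3812 CPM with DMSO and 2532, 12292 and 12824 CPM with TEPP-46 (1.47 ± 0.54, adjusted p = 0.0881), highest in replicates 4 and 5, and Tug1 rose by 1.37 but not without DMSO replicate 1, 4 or 5 or TEPP-46 replicate 4 or 5 (highest adjusted p = 0.11). The library medians of the 30 ribosomal protein genes were 0.46, -1.62 and -0.64. Of these genes, Rps14 alone was called, as a fall (-1.28), and its call was lost without DMSO replicate 1, 4 or 5 or TEPP-46 replicate 4 or 5 (highest adjusted p = 0.108). Without TEPP-46 replicate 1, 19 of them fell, and limma-voom with library quality weights called 18 falls.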

How the data were processed

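The deposited table holds raw read counts per gene for 9 libraries, on GRCm38 per the submitters' processing notes, which also name DESeq2. No source used here gives the aligner, annotation release, strand setting or any filter, so reads of overlapping or antisense genes cannot be told apart. Of 47937 gene IDs, 47310 matched GENCODE M21, which gave symbols and coordinates; promoters come from RefSeq GRCm38.p6.

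Genes were filtered with edgeR 4.0.16 (filterByExpr, minimum count 10, minimum total 15), scaled by TMM and fitted in R 4.3.3 over the 3 groups (all 9 libraries, 6 residual degrees of freedom, biological coefficient of variation 0.33) with the quasi-likelihood test and Benjamini-Hochberg adjustment. Standard errors are the fold change divided by the square root of F. CPM were computed on the filtered library sizes times TMM factors. Scripts were tested on simulated counts. Counting intervals are 95% exact and, without molecular identifiers, cover counting error only.

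Alternatives were DESeq2 1.42.0, limma-voom (limma 3.58.1) with quality weights, other scalings and filters, the 6 activated libraries alone, a replicate block and each library left out. The comparison and gene lists were chosen with earlier results of these data known. The rule took the 12 largest called rises and falls at 10 CPM or more with groups apart (without clone, predicted, pseudogene, immunoglobulin or T cell receptor segment names), the 6 largest of each in CPM, up to 4 genes a list by adjusted p, and preset genes. A few genes that the rule took are not reported here.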

Additional observations from a re-analysis of the deposited data

How the results depend on the processing

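With the counts of genes that rose and fell set beside 1219 and 806, DESeq2 called 1667 and 1390 and limma-voom with library quality weights called 3186 and 2978. Those weights were 0.218, 0.255 and 2.3 for TEPP-46 replicates 1, 4 and 5, so the limma-voom counts rest mostly on replicate 5 for that group. RLE factors gave 1138 and 857, upper-quartile factors 1195 and 869, total counts alone 922 and 1182, no filter on low counts 1421 and 1127, a minimum count of 50 gave 1067 and 745, and the 6 activated libraries alone gave 878 and 572. Leaving out 1 library moved the rises between 258 and 2274 and the falls between 137 and 2133; the 3 omissions of a DMSO library and that of TEPP-46 replicate 5 lowered both counts by more than 1.5 times, and that of TEPP-46 replicate 1 raised both. A fit with the replicate number as a block gave 824 and 560, and the same block on the 6 activated libraries, chosen after the data were seen, gave 393 and 223. The numbers did not pair the libraries by the rule used: the deviations of same-numbered TEPP-46 and DMSO libraries from their group means correlated at 0.06, 0.04 and 0.09 across genes. Among the 6 activated libraries, each correlated best with its own number in the other group; with resting libraries included this did not hold, so it is a hint from the data and not from the design. Over all settings, called genes with the opposite sign numbered 0. For single named genes, 413 of the values under alternatives no longer passed the threshold, 136 newly passed it and 3245 kept their side. Depth limits what can be said of genes at a few counts, and the spread among the TEPP-46 libraries limits every list in which replicate 1 stood apart.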
